A study of Arabidopsis thaliana with 15 samples.

Results

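Cytochrome P450 genes were followed in roots of Arabidopsis thaliana after starved plants received nitrate or ammonium. A gene was taken as a member where a probe set of the Affymetrix ATH1 array was annotated to that gene alone and its symbol was a P450 family name, that is CYP, a family number, a subfamily letter and a gene number, which leaves out cyclophilins. The rule found 23 genes, each with 1 probe set, among 13513 probe sets with 1 named gene and 22746 probe sets in all. The RefSeq gene table lists 236 symbols of this form, and those without a singly named probe set were not analysed here. Of the 23 genes, 19 belong to subfamily CYP71B, for which RefSeq lists 36 symbols, and the others are CYP78A9, CYP84A4, CYP79A2 and CYP51G2, each from a different family.

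Col-0 plants, the standard laboratory accession, grew in hydroponic culture to growth stage 5.10 and were then kept for 26 h in medium without nitrogen, a treatment that all 5 groups share. Roots were taken 1.5 h and 8 h after 1 mM nitrate, 1.5 h and 8 h after 1 mM ammonium, and just before any supply, with 3 biological replicates per group and at least 5 plants pooled in each of the 15 samples. The labels do not say whether replicates were grown in separate runs, so p values measure the spread between these pools. The counter-ions are not given, and no roots kept without nitrogen were harvested at 1.5 h or 8 h. Nitrogen supply, elapsed time and time of day therefore cannot be told apart in a comparison with roots before supply. Nitrate and ammonium were compared at matched times, where the form of nitrogen and its counter-ion cannot be told apart.

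P450 enzymes are heme proteins that insert an oxygen atom into small molecules, mostly at the endoplasmic reticulum and with electrons from a P450 reductase. Plants use them to build and break down hormones, sterols, phenolics and defence compounds. The CYP71 family is known for defence metabolism, and in Arabidopsis its B subfamily lies largely in tandem arrays of similar genes, of which only a few members have a known substrate. Similar sequence also means that a probe set of one CYP71B gene may pick up transcripts of a neighbour, and this was not checked here because probe sequences were not used.

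Levels are deposited RMA values on a log2 scale, and they are compared between samples for the same gene only. A probe set's brightness also depends on its probes, so it does not order the genes by expression and serves here only to show how far each probe set lay above the dim end of the array. In 10 genes the mean over 15 samples lay between 5.82 and 9.0 log2 and every sample was above its own lower quartile of all probe sets, which was 4.36 to 4.52 log2. In the other 13 genes the mean lay between 3.0 and 4.21 log2, and 12 of these were below the lower quartile in all 15 samples. The deposited values carry no detection call, so the 13 low genes are not shown to be above background. None of them passed the test in any of 9 comparisons, and the smallest adjusted p (limma) among them was 0.067. Of all probe sets with means under 5 log2, 2.48% and 4.34% were called at 1.5 h and 8 h after nitrate, 2.81% and 4% at 1.5 h and 8 h after ammonium, 3.04% and 2.64% between the ions at those times, 2.3% between the times with nitrate, 3.68% between the times with ammonium and 1.58% for the change of the ion difference. The higher set holds 7 of the 19 CYP71B genes together with CYP78A9, CYP84A4 and CYP51G2, and the lower set holds 12 CYP71B genes and CYP79A2.

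Many members are neighbours on the genome. The 11 members between CYP71B16 (AT3G26150) and CYP71B37 (AT3G26330) stand within 25 annotated genes, 18 of which have P450 symbols, and CYP71B23, CYP71B26 and CYP71B34 are those of the 11 that were called in any comparison. The run from CYP71B27 (AT1G13070), a transcribed pseudogene in RefSeq, to CYP71B29 (AT1G13100) holds 3 members, of which CYP71B28 and CYP71B29 were called. The 3 members of the third run, CYP71B5, CYP71B30P and CYP71B31 (AT3G53280 to AT3G53300), were not called in any comparison and belong to the low set.

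Of the tissue markers, the root hair expansins EXPA7 and EXPA18 averaged 10.2 and 10.4 log2. The photosynthesis genes RCA, PRK and SBPASE averaged 6.12, 3.78 and 3.66. These were the 2 of 18 root markers and 3 of 17 shoot markers with a singly named probe set. Levels of different probe sets are not compared here, so these values do not show how much shoot RNA was present. RCA was as bright as CYP71B28 of the higher set (6.12). The root pair, both root hair genes, did not hold a constant level. It averaged 10.28 to 10.59 in the 3 samples at 1.5 h after nitrate and 10.43 to 10.58 at 8 h after nitrate. The pair averaged 9.87 to 10.21 at 1.5 h after ammonium, 10.26 to 10.55 at 8 h after ammonium and 10.03 to 10.23 before supply. Its members called higher than before supply were EXPA18 at 1.5 h after nitrate, EXPA7 and EXPA18 at 8 h after nitrate, EXPA18 at 8 h after ammonium and neither at 1.5 h after ammonium. The 3 shoot markers averaged 4.41 to 4.64 in every sample. Genes of the core hypoxia response also moved: of 12 measured, 5 rose at 1.5 h after nitrate, 2 at 8 h after nitrate, 9 at 1.5 h after ammonium and 7 at 8 h after ammonium, and none fell. Their mean level was 7.30 to 9.27, 7.24 to 8.64, 8.38 to 9.42 and 8.04 to 9.25 log2 in the samples of those 4 groups, and 6.76 to 7.25 before supply. In these 4 comparisons with roots before supply, 5.97%, 8.93%, 5.97% and 7.72% of all probe sets rose, in the same order. Of 3 touch and handling genes, 1 of which is also on the hypoxia list, 1, 1, 3 and 1 rose in the same 4 comparisons. The part of these shifts in the P450 values was not tested.

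Changes below are log2 differences ± the standard error of limma's fit over all 15 samples, with 3 samples in each group, and the words rose and fell are kept for genes whose p, adjusted over all 22746 probe sets, was below 0.05. In whole-root RNA, fewer cells of a type and less RNA per cell cannot be told apart. At 1.5 h after nitrate 1 of the 23 genes rose and 4 fell against roots before supply, where 13.3% of all probe sets were called (5.97% rose and 7.29% fell). At 8 h after nitrate 2 rose and 3 fell, where 20.6% of all probe sets were called (8.93% and 11.7%). With ammonium, 0 rose and 5 fell at 1.5 h (13.8% of all probe sets called, 5.97% and 7.83%), and 1 rose and 3 fell at 8 h (17.6%, 7.72% and 9.91%). The shares of members called were 21.7% in the first 3 of these and 17.4% in the last. All calls fell on the 10 genes with means of at least 5 log2, where 5, 5, 5 and 4 of 10 genes compare with 18.1%, 27.9%, 18.7% and 23.7% of all probe sets at such means, in that order. With 10 genes these shares are a description, and nothing is read from them about P450 genes as a group. These 4 comparisons share the roots before supply. The median difference of the 23 genes was −0.11, −0.00, 0.01 and −0.06 log2 in that order, against −0.04, −0.02, −0.03 and −0.03 for all probe sets. Over all 9 comparisons, 8 of the 23 genes were called in at least 1.

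CYP78A9 was the P450 gene with the largest change, a rise with nitrate at either time. It belongs to a subfamily whose members promote growth of organs, and CYP78A9 itself is known for enlarging fruits and seeds when overexpressed. Its level was 8.86, 8.96 and 9.25 log2 in the 3 samples at 1.5 h after nitrate, 8.58, 8.87 and 9.03 at 8 h after nitrate, 7.21, 6.97 and 7.10 at 1.5 h after ammonium, 6.87, 6.90 and 6.94 at 8 h after ammonium, and 6.98, 6.63 and 6.60 before supply. All 6 nitrate samples thus lay well above the other 9, and the other 9 spanned 6.60 to 7.21.

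The rise of CYP78A9 was 2.29 ± 0.13 log2 (4.88-fold, adjusted p = 3.4e-09) at 1.5 h after nitrate and 2.09 ± 0.13 (4.26-fold, adjusted p = 6e-09) at 8 h. The first of these was larger in size than 99.7% of the differences of all probe sets in that comparison. With ammonium the differences from roots before supply were 0.36 ± 0.13 at 1.5 h (adjusted p = 0.081) and 0.17 ± 0.13 at 8 h (adjusted p = 0.44), neither of which passed the test. The 1.5 h ammonium value passed it without replicate 1 taken before supply (adjusted p = 0.02) and with array weights (0.0019). The 8 h ammonium value also passed it with array weights (0.29, adjusted p = 0.031). The absence of either call thus depends on the setting. Compared directly, nitrate exceeded ammonium by 1.93 ± 0.13 at 1.5 h (3.81-fold, adjusted p = 7.6e-08) and by 1.92 ± 0.13 at 8 h (3.79-fold, adjusted p = 4e-08). The change of that difference with time was −0.01 ± 0.18 (adjusted p = 0.99).

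The hypoxia list is given beside CYP78A9 because it moved in the same samples, and its part in the rise was not tested. Replicates 1, 2 and 3 at 1.5 h after nitrate had hypoxia means of 8.65, 9.27 and 7.30 log2 and CYP78A9 levels of 8.86, 8.96 and 9.25. The ammonium samples at 1.5 h had hypoxia means of 8.38 to 9.42 and CYP78A9 levels of 6.97 to 7.21. The size of the rise varied little with the processing. Over 12 alternatives, among them leaving out each replicate of the groups compared, the rise of CYP78A9 at 1.5 h after nitrate stayed between 2.17 and 2.45 log2.

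**Figure D1:**
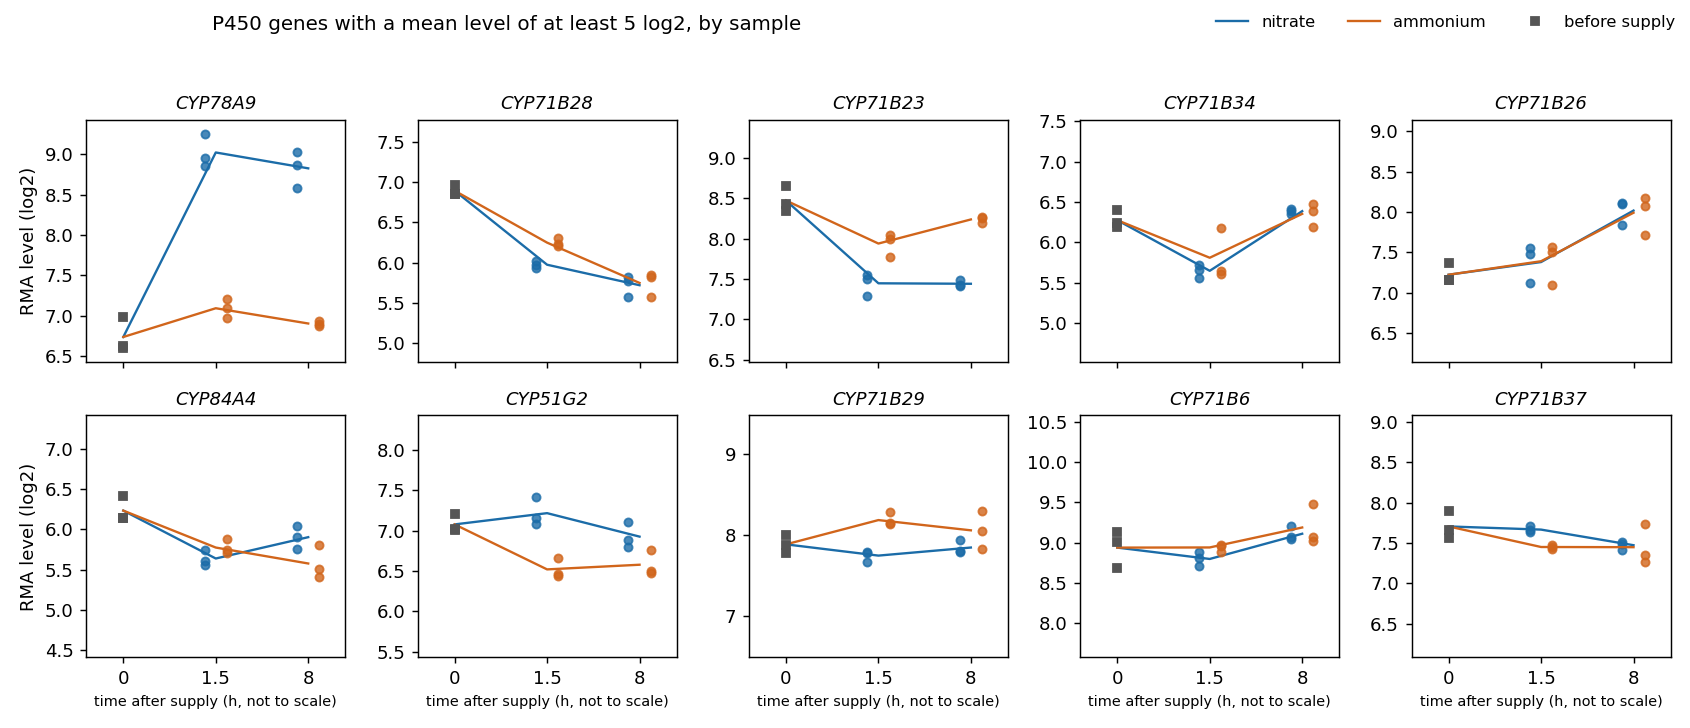
RMA level (log2, vertical axis, each panel spanning 3 log2 units) against time after supply (h, not to scale) for the 10 P450 genes with means of at least 5 log2. Points are samples (blue nitrate, orange ammonium, grey squares before supply) and lines join group means, with CYP78A9 near 9 log2 in the nitrate samples only and CYP71B28 lower after either ion.

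CYP84A4 fell with either ion. It encodes a P450 that hydroxylates a phenolic on the way to arabidopyrones, pyrone compounds derived from phenylpropanoids. It was at 5.56, 5.74 and 5.61 log2 at 1.5 h after nitrate, 5.76, 5.91 and 6.04 at 8 h after nitrate, 5.88, 5.74 and 5.70 at 1.5 h after ammonium and 5.41, 5.51 and 5.81 at 8 h after ammonium, against 6.41, 6.15 and 6.14 before supply. Every supplied sample was below every sample before supply. The differences were −0.59 ± 0.11 (adjusted p = 0.0013), −0.33 ± 0.11 (0.044), −0.46 ± 0.11 (0.0099) and −0.66 ± 0.11 (0.00052) in that order of groups. The call at 8 h after nitrate was lost in 7 of 12 alternatives, among them leaving out replicate 1 taken before supply (adjusted p = 0.17) and replicate 1 (0.17) or replicate 2 (0.096) at 8 h after nitrate, and fitting the replicate block (0.054). Nitrate and ammonium differed by −0.14 ± 0.11 at 1.5 h and by 0.33 ± 0.11 at 8 h, and neither difference was called (adjusted p = 0.52 and 0.074). The 8 h difference was called in 5 of 12 alternatives, among them array weights (0.024) and leaving out replicate 3 at 8 h after ammonium (0.015).

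Of 19 listed partner genes of phenylpropanoid and lignin synthesis, 4 had a singly named probe set. At 1.5 h after nitrate 3 of them fell and none rose, at 8 h after nitrate 3 fell, at 1.5 h after ammonium 2 fell and 1 rose, and at 8 h after ammonium 2 fell. Of all probe sets, 7.29%, 11.7%, 7.83% and 9.91% fell in that order, and 5.97% rose at 1.5 h after ammonium. With 4 genes the counts are a description only. UGT72E2, a monolignol glucosyltransferase, was the called partner with the smallest p at 1.5 h after ammonium (−1.19 ± 0.07, adjusted p = 2.7e-08), and HCT, a hydroxycinnamoyl transferase of the lignin pathway, fell by 0.59 ± 0.08 at 8 h after nitrate (adjusted p = 6.1e-05). The median of the 4 partners was −0.44 at 1.5 h after nitrate, −0.68 at 8 h after nitrate, −0.42 at 1.5 h after ammonium and −0.13 at 8 h after ammonium.

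CYP51G2 fell with ammonium and was not called with nitrate. CYP51 enzymes are sterol 14-demethylases, and RefSeq classes this locus (AT2G17330) as a transcribed pseudogene. CYP51G1 (AT1G11680) had no singly named probe set, and whether the CYP51G2 probe set picks up its transcripts was not checked. Levels of CYP51G2 were 6.66, 6.44 and 6.46 log2 at 1.5 h after ammonium and 6.47, 6.50 and 6.76 at 8 h after ammonium, against 7.02, 7.20 and 7.01 before supply. All 6 ammonium samples were below the samples before supply. The falls were −0.56 ± 0.11 (adjusted p = 0.0029) at 1.5 h and −0.50 ± 0.11 (adjusted p = 0.0051) at 8 h. In nitrate the levels were 7.15, 7.08 and 7.42 at 1.5 h and 6.79, 6.88 and 7.11 at 8 h, with differences of 0.14 ± 0.11 and −0.15 ± 0.11 from roots before supply (adjusted p = 0.5 and 0.42). The direct comparison was called at 1.5 h, where nitrate exceeded ammonium by 0.70 ± 0.11 (1.62-fold, adjusted p = 0.00054). At 8 h the difference was 0.35 ± 0.11 without overlap of the samples and narrowly missed the threshold (adjusted p = 0.061), which it passed in 8 of 12 alternatives, including those without replicate 1 at 8 h after nitrate (0.047) or replicate 3 at 8 h after ammonium (0.032).

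CYP71B23 (AT3G26210) fell with nitrate by more than with ammonium. It was at 7.29, 7.50 and 7.56 log2 at 1.5 h after nitrate and 7.49, 7.42 and 7.41 at 8 h after nitrate, against 8.34, 8.43 and 8.65 before supply. The falls were −1.03 ± 0.09 at each time (2.04-fold lower, adjusted p = 1.2e-06 at 1.5 h and 7.7e-07 at 8 h). With ammonium it was at 8.00, 8.05 and 7.77 at 1.5 h and at 8.19, 8.25 and 8.28 at 8 h. The 1.5 h value was a fall of −0.53 ± 0.09 (adjusted p = 0.0012). That at 8 h, −0.23 ± 0.09, was not called (adjusted p = 0.11), although its 3 samples lay just below those before supply. With array weights the 8 h value was called lower (−0.39, adjusted p = 0.00099), so the absence of that call depends on the setting.

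For CYP71B23 the ions differed at each time. Nitrate was lower than ammonium by −0.49 ± 0.09 log2 at 1.5 h (adjusted p = 0.0025) and by −0.80 ± 0.09 at 8 h (adjusted p = 2.5e-05), with no overlap of samples. The change of this difference between the times, −0.30 ± 0.13, was not called (adjusted p = 0.24).

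CYP71B28 (AT1G13090) fell with either ion and at either time. Its level was 5.93, 5.97 and 6.02 log2 at 1.5 h after nitrate, 5.82, 5.57 and 5.77 at 8 h after nitrate, 6.30, 6.24 and 6.21 at 1.5 h after ammonium and 5.82, 5.85 and 5.58 at 8 h after ammonium, against 6.86, 6.86 and 6.96 before supply. Every supplied sample was below the roots before supply, and the ions met at 8 h. The falls were −0.92 ± 0.08 and −1.17 ± 0.08 with nitrate and −0.64 ± 0.08 and −1.14 ± 0.08 with ammonium, with adjusted p from 3.3e-08 to 6.4e-05. At 8 h after ammonium it was lower by −0.50 ± 0.08 than at 1.5 h (adjusted p = 0.00097). The step with nitrate, −0.25 ± 0.08, was not called (adjusted p = 0.06). The nitrate step was called in 3 of 12 alternatives, including array weights (0.015) and omitting replicate 1 at 8 h after nitrate (0.046). The steps with nitrate and ammonium were not shown to differ (nitrate minus ammonium 0.25 ± 0.12, adjusted p = 0.27). Nitrate was lower than ammonium at 1.5 h by −0.27 ± 0.08 (adjusted p = 0.045). That call was lost without any one of the 6 samples compared (adjusted p = 0.074 to 0.15), with a variance trend (0.078) and with the replicate block (0.052). At 8 h the ions differed by −0.03 ± 0.08 (adjusted p = 0.9).

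Its neighbour CYP71B29 (AT1G13100) was not called against roots before supply in any of the 4 comparisons. It was at 7.79, 7.78 and 7.67 log2 at 1.5 h after nitrate and at 8.15, 8.13 and 8.28 at 1.5 h after ammonium, so that nitrate was lower than ammonium by −0.44 ± 0.10 (1.36-fold, adjusted p = 0.0092). At 8 h the difference was −0.21 ± 0.10 (adjusted p = 0.23). Before supply the levels were 7.88, 7.78 and 8.00, with a mean between those of the ions. The ammonium samples at 1.5 h were all above these, by 0.30 ± 0.10 on average (adjusted p = 0.063, and 0.043 with a variance trend).

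CYP71B26 (AT3G26290) rose late with either ion. Its levels were 8.10, 7.84 and 8.12 log2 at 8 h after nitrate and 7.72, 8.08 and 8.18 at 8 h after ammonium, against 7.15, 7.15 and 7.36 before supply. The rises were 0.79 ± 0.15 (1.73-fold, adjusted p = 0.00091) and 0.77 ± 0.15 (1.70-fold, adjusted p = 0.0016), and the ions differed by 0.03 ± 0.15 at that time (adjusted p = 0.95). At 1.5 h it was at 7.12, 7.55 and 7.48 with nitrate and 7.10, 7.57 and 7.50 with ammonium, which overlap the roots before supply. The 8 h level exceeded the 1.5 h level by 0.64 ± 0.15 with nitrate (adjusted p = 0.0089) and by 0.60 ± 0.15 with ammonium (adjusted p = 0.014). The first of these calls was lost without replicate 1 at 1.5 h after nitrate (adjusted p = 0.051), and the other without replicate 1 at 1.5 h after ammonium (0.077) or without replicate 2 (0.055) or 3 (0.073) at 8 h after ammonium.

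CYP71B34 (AT3G26300), the member next along the genome, instead fell early, and its samples overlapped the roots before supply again at 8 h. At 1.5 h it was at 5.66, 5.56 and 5.72 log2 with nitrate and 5.61, 5.64 and 6.18 with ammonium, against 6.19, 6.24 and 6.40 before supply. At 8 h it was at 6.39, 6.36 and 6.41 with nitrate and 6.19, 6.47 and 6.39 with ammonium, so that nitrate or ammonium samples and those before supply share a range. The early fall was −0.63 ± 0.12 with nitrate (adjusted p = 0.0022) and −0.47 ± 0.12 with ammonium (adjusted p = 0.019). The ammonium call did not survive leaving out replicate 3 taken before supply (adjusted p = 0.081), nor replicate 1 (0.098) or 2 (0.089) of ammonium, and replicate 3 of ammonium lay close to the roots before supply.

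From 1.5 h to 8 h CYP71B34 increased by 0.74 ± 0.12 with nitrate (adjusted p = 0.00076) and by 0.54 ± 0.12 with ammonium (adjusted p = 0.0089, and 0.051 without replicate 1 at 1.5 h after ammonium). Counting all members, 2 rose and 0 fell between the times with nitrate, where 11.9% of all probe sets were called (5.81% higher, 6.05% lower), and 2 rose and 1 fell with ammonium, where 11.5% were called (5.82% higher, 5.64% lower). At means of at least 5 log2 the called shares of all probe sets were 16.1% and 14.9%. CYP71B26 and CYP71B34 were the risers in each case, and CYP71B28 fell with ammonium. Without replicate 1 at 1.5 h the count was 1 with either ion.

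**Figure D2:**
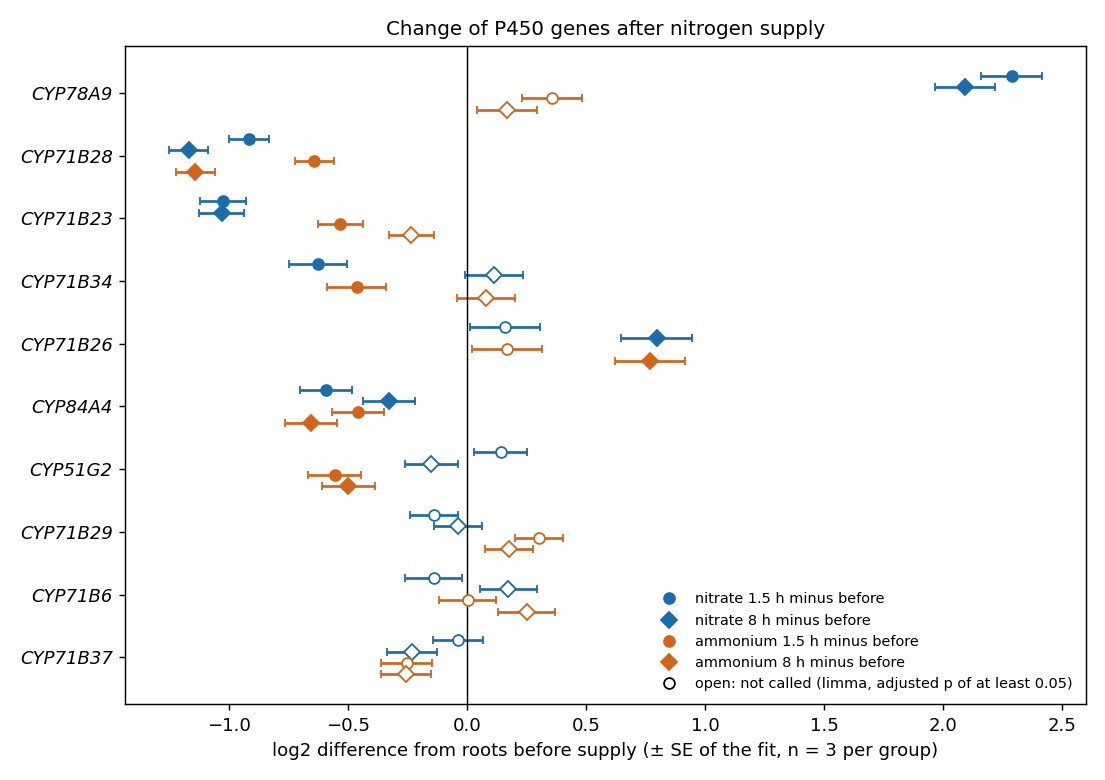
Log2 difference from roots before supply (horizontal axis, ± SE of limma's fit, 3 samples in each group) for 10 P450 genes, with blue for nitrate, orange for ammonium, circles for 1.5 h and diamonds for 8 h, and open symbols where the adjusted p was not below 0.05. CYP78A9 lies at 2.29 and 2.09 with nitrate against 0.36 and 0.17 with ammonium, and CYP71B28 is negative in all 4 comparisons.

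CYP71B6 passed no test in any comparison. The enzyme acts in indolic metabolism, where it converts indole-3-acetonitrile to indole-3-carboxylic acid. Levels were 8.80, 8.89 and 8.71 log2 at 1.5 h after nitrate, 9.21, 9.08 and 9.04 at 8 h after nitrate, 8.89, 8.96 and 8.97 at 1.5 h after ammonium and 9.07, 9.48 and 9.02 at 8 h after ammonium, against 9.13, 8.68 and 9.01 before supply. The 4 differences lay between −0.14 and 0.25, with adjusted p from 0.19 to 0.99. Of 21 listed partner genes of indolic glucosinolate and camalexin synthesis, UGT74B1 alone had a singly named probe set. This glucosyltransferase of glucosinolate synthesis rose by 0.45 ± 0.08 at 8 h after nitrate (adjusted p = 0.00053) and was at 0.06 ± 0.08 at 8 h after ammonium, not called (adjusted p = 0.65).

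CYP71B37 (AT3G26330), named after its values were seen to complete the higher set, also passed no test in the fit described above, with differences of −0.04 ± 0.11 and −0.23 ± 0.11 at 1.5 h and 8 h after nitrate and −0.25 ± 0.11 and −0.26 ± 0.11 at 1.5 h and 8 h after ammonium. With array weights it was called lower at 8 h after nitrate (−0.39, adjusted p = 0.0023) and at 1.5 h (−0.42, 0.0018) and 8 h (−0.42, 0.0015) after ammonium. Without replicate 2 at 8 h after ammonium the last difference was −0.40 and was also called (adjusted p = 0.007). CYP79A2, which makes phenylacetaldoxime from phenylalanine for benzyl glucosinolate, was at 3.14 to 3.91 log2 in all samples and differed from roots before supply by −0.13 to 0.03 log2. At 8 h after ammonium its samples were at 3.91, 3.32 and 3.14. Without replicate 1, at 3.91, it was called lower than before supply at that time (−0.32, adjusted p = 0.038). Nitrate then exceeded ammonium at 8 h by 0.36 (adjusted p = 0.034). Both measured partners of 15 listed for aliphatic glucosinolate synthesis, BCAT4 and GSTU20, fell at 1.5 h with either ion and at 8 h with nitrate, and BCAT4 also at 8 h after ammonium. That list is of the aliphatic route and not of the benzyl glucosinolate route of CYP79A2. Of all probe sets, 7.29% and 7.83% fell at 1.5 h after nitrate and ammonium, and 11.7% and 9.91% at 8 h. BCAT4, an aminotransferase of methionine chain elongation, changed by −0.48 ± 0.08 at 1.5 h after nitrate and by −0.75 ± 0.08 at 1.5 h after ammonium (adjusted p = 0.00057 and 1.2e-05). No gene on the list of P450 electron transfer partners had a singly named probe set, so none was analysed here, and the lists of coumarin synthesis and of root triterpenes hold none of the 23 genes. Among all 13 low genes no difference exceeded 0.54 log2 in size.

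Nitrate and ammonium were compared directly at each time. The counter-ions are not given, so the form of nitrogen and its counter-ion cannot be told apart in this comparison. At 1.5 h CYP78A9 and CYP51G2 were higher with nitrate, and CYP71B23, CYP71B28 and CYP71B29 were lower, so that 2 of 23 genes rose and 3 fell (5.61% and 5.08% of all probe sets, 10.7% together). At 8 h CYP78A9 was higher and CYP71B23 lower, 1 of 23 genes each way (5.4% and 5.28% of all probe sets, 10.7% together). Among probe sets with means of at least 5 log2, 14.1% were called at 1.5 h and 14.3% at 8 h, against 5 and 2 of the 10 P450 genes at such means. The count at 8 h was 4 without replicate 1 of nitrate and 5 without replicate 3 of ammonium, where CYP51G2 and CYP84A4 were called as well in each case. Samples of the ions did not overlap in 14 of the 23 genes at 1.5 h (29.7% of all probe sets) and in 4 at 8 h (27.7%), but 9 of those 14 and 2 of those 4 genes were not called. The median difference was −0.14 log2 at 1.5 h and 0.02 at 8 h, against −0.01 and 0.01 for all probe sets.

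Whether the difference between ions changed from 1.5 h to 8 h was tested as an interaction. Limma called 0 of the 23 genes (4.5% of all probe sets and 5.79% of those with means of at least 5 log2 were called), with 5 at an unadjusted p below 0.05 and a smallest adjusted p of 0.11. These 5 were CYP84A4 (0.46 ± 0.15), CYP71B22 (0.54 ± 0.18), CYP71B5 (0.31 ± 0.13), CYP51G2 (−0.35 ± 0.16) and CYP71B23 (−0.30 ± 0.13), of which CYP71B22 and CYP71B5 belong to the low set. The calls of 5 genes at 1.5 h and of 2 at 8 h are therefore not shown to differ by time. The share of all probe sets at an unadjusted p below 0.05 was not counted, so nothing is read from the 5 genes at that level. With array weights the change was called for CYP84A4 (adjusted p = 0.042) and CYP71B22 (0.02). For CYP84A4 it was also called without replicate 3 at 8 h after ammonium (0.039).

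**Figure D3:**
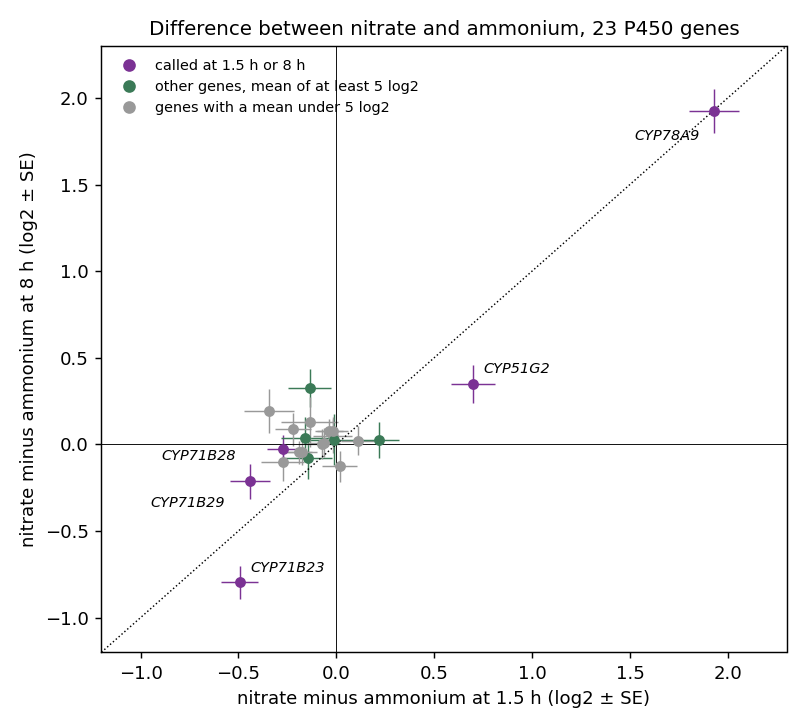
Log2 difference of nitrate minus ammonium at 8 h (vertical axis) against that at 1.5 h (horizontal axis) for 23 P450 genes, with bars of ± SE and a dotted line of equal values. CYP78A9 lies near the line at 1.93 and 1.92, CYP71B23 at −0.49 and −0.80, and CYP51G2 at 0.70 and 0.35.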

How the data were processed

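Root RNA of 15 samples was hybridised to ATH1 arrays. The deposited values were log2 expression per probe set, and RMA and limma are named in the submitters' processing notes with no version or role. That the scale is log2 was judged from their range (sample medians 6.762 to 6.833). No scan files were used here. Probe sets were named from the platform annotation, with symbols from RefSeq (TAIR10.1), which matched 13436 of 13513 singly named probe sets. The files name no genome build, so gene order only was taken from RefSeq. Coordinates and sequences are not given.

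All 22746 probe sets were fitted without filter with limma 3.58.1 in R 4.3.3 (5 group means, 9 contrasts, residual degrees of freedom 10, prior 5.11), with Benjamini-Hochberg adjustment within each contrast and calls below 0.05. The median standard error of a difference was 0.0921 log2, and the number of arrays limits the precision. Replicates correlated at r = 0.9935 to 0.9978. Named were the largest called changes, the called members of role lists or otherwise their member with the smallest p, and up to 3 partner genes per list. Members, lists and tests were chosen with earlier results of these data known. Figures were drawn in Python 3.11.15 with matplotlib 3.10.9.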

Additional observations from a re-analysis of the deposited data

How the results depend on the processing

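Alternatives were array weights, a variance trend with robust estimation, a second quantile normalization, centring on sample medians, only probe sets with a mean of at least 5 log2, only the groups compared, the replicate number as a block, each replicate left out, and a threshold of 0.01. Since all 23 genes had 1 probe set, no other probe set could be chosen. Of 2505 recomputed differences of single genes 0 changed sign where either value was called, and 25 of 31 calls were kept throughout the alternatives run on single genes, which leave out the last threshold and the fit of only the groups compared. With array weights (7.64 for replicate 3 and 0.252 for replicate 1 of the roots before supply) the genes called against roots before supply were 7 at 1.5 h after nitrate in place of 5 (CYP71B29 and CYP71B21 added), 8 at 1.5 h after ammonium in place of 5, 8 at 8 h after nitrate in place of 5 and 7 at 8 h after ammonium in place of 4. Nitrate against ammonium then gave 8 at 1.5 h in place of 5 and 4 at 8 h in place of 2, nitrate at 8 h against 1.5 h gave 5 in place of 2, and the change of the ion difference 2 in place of 0. The weights raised calls across the array as well, to 6061 of 22746 probe sets at 1.5 h after nitrate in place of 3017. A second quantile normalization or median centring also gave 4 in place of 2 for nitrate against ammonium at 8 h. With only the groups compared, nitrate at 8 h against 1.5 h gave 4 in place of 2 and the change of the ion difference 1 in place of 0. The cause was not tested.

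Without single replicates the genes called were 5 to 5 at 1.5 h after nitrate, 4 to 6 at 1.5 h after ammonium, 4 to 6 at 8 h after nitrate and 4 to 5 at 8 h after ammonium, each against roots before supply. They were 4 to 5 for nitrate against ammonium at 1.5 h, 2 to 5 for the same at 8 h, 1 to 3 for 8 h against 1.5 h with either ion, and 0 to 1 for the change of the ion difference. The labels do not say whether replicate numbers pair the samples, and the main fit did not pair them. Deviations of same-numbered samples correlated at −0.16 to 0.37 (median 0.09, 14 of 30 pairs over 0.1). Those of different-numbered samples correlated at −0.36 to 0.29 (median −0.05, 10 of 60), so same-numbered samples were somewhat more alike. Of 15 samples, 8 correlated best with their own number, where with 3 numbers some would do so without any pairing. With the replicate block 4 genes in place of 5 were called for nitrate against ammonium at 1.5 h, 3 in place of 2 for the same at 8 h and 3 in place of 2 for nitrate at 8 h against 1.5 h, and the other counts were equal, although at 8 h after nitrate the block lost CYP84A4 (adjusted p = 0.054) and added CYP71B27 (0.032). Low signal limits the reading: 15 of 23 genes were not called in any comparison, among them all 13 low genes, on which the alternatives added 16 calls in 5 genes, 9 of these calls with array weights.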

Other observations

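A pair of probe sets that name a P450 together with another gene were left out of the comparisons. The probe set shared by CYP71B20 and CYP71B19, which lie in the same run as CYP71B23 and CYP71B26, averaged 6.04 log2. It differed from roots before supply by 0.02 ± 0.11 at 1.5 h after nitrate, 0.11 ± 0.11 at 8 h after nitrate, 0.02 ± 0.11 at 1.5 h after ammonium and 0.08 ± 0.11 at 8 h after ammonium (limma, adjusted p from 0.55 to 0.95). The probe set shared by CYP79C2 and AT1G58265 averaged 3.49 log2, in the range of the low genes, and was not called in any comparison.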
